A study of Mus musculus with 26 samples.

Results

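Expression of 34 genes of DNA replication and the G1/S transition was examined, out of 47730 features in the count table. The genes were chosen by name for their known roles, with earlier results of these data known. They comprise 6 subunits of the MCM helicase, 6 factors that load and fire origins, and 6 genes of the sliding clamp, its loader and the single-strand binding protein RPA. A further 7 encode polymerases, Okazaki fragment enzymes and a fork factor, 6 act in nucleotide supply and chromatin assembly, and 3 regulate entry into S phase. All 34 passed the filter on low counts, which left 16637 features.

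In G1, ORC, Cdc6 and Cdt1 load the MCM ring onto origins as an inactive double hexamer. When cyclin E and its kinase inactivate the retinoblastoma protein, E2F factors switch on a programme that includes most of the genes named here. Cdc45 and GINS then join MCM to form the active helicase, and the forks that follow need primase, polymerases, clamp, ligase, deoxynucleotides and new histones. In tumours the transcripts of this programme are widely used as a readout of cycling cells.

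The study compared cells of E-A14, a Her2-expressing mouse mammary tumour line that carries an activated rat Neu transgene, after growth in FVB/N mice with and without T cells. The depleted mice received 100 µg each of antibodies against CD4 and CD8a, and the control mice rat IgG2a and IgG2b, 2 times a week beginning 2 weeks before E-A14 was implanted into the fat pad of the mammary gland at 6 to 8 weeks of age. Tumours were collected at their end-point, on day 20 in depleted mice and on day 47 in control mice, and live cells without CD90, CD105 and CD45 were sorted into Her2-positive EpCAM-negative (mesenchymal) and Her2-positive EpCAM-positive (epithelial) fractions. Each fraction gave 6 libraries per treatment, one per mouse, and 2 libraries came from the line in culture. All tumours therefore arose from 1 cell line, treatment and day of collection cannot be told apart, and whether the cultures were grown separately is not stated.

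Library totals were 17559520 to 25601999 counts in depleted tumours, 26895429 to 38740143 in control tumours, and 27253363 and 35059744 in the cultures, so that depth separated the treatments as well. Epcam had 40.0 to 283.7 CPM (counts per 1000000 counts of the library) in depleted EpCAM-negative and 2038 to 2705 in depleted EpCAM-positive libraries. It had 1.06 to 2.39 CPM in control EpCAM-negative and 814.9 to 1416 in control EpCAM-positive libraries. The 6 epithelial markers, with Epcam, summed to 3752 to 5321 CPM in depleted and 969.3 to 1593 CPM in control EpCAM-negative libraries. In EpCAM-positive libraries the sums were 10040 to 10860 and 5835 to 7506 CPM. In the same order, the sums of 4 mesenchymal markers were 14510 to 21370, 20790 to 36550, 6189 to 8564 and 8091 to 13940 CPM. The EpCAM-negative fractions of the treatments thus differed in epithelial markers, whose part in the results was not tested. The rat Neu transgene was read in all groups, at a mean of 305 to 577 CPM. Summed T cell markers reached at most 3.62 CPM in any library, and summed B cell markers at most 0.237 CPM. Macrophage markers, although CD45-positive cells had been sorted out, differed between groups: the 12 genes summed to 143.3 to 343.6 CPM in depleted EpCAM-negative, 172.7 to 262.5 in depleted EpCAM-positive, 54.9 to 75.7 in control EpCAM-negative and 120.2 to 280.2 in control EpCAM-positive libraries. The cultures had macrophage sums of 71.0 and 69.4 CPM, within the control EpCAM-negative range, so some of these genes were read in the line itself. Of these 12, Fcgr1, Mrc1, C1qa and Ptprc were at 0 in both cultures and none was at 0 throughout a tumour group. In control EpCAM-negative cells 8 of the 12 had a mean under 1 CPM. The 7 fibroblast markers separated the treatments, with sums of 168 to 250.2 CPM in depleted EpCAM-negative and 78.5 to 230.4 in depleted EpCAM-positive libraries, against 1292 to 5034 in control EpCAM-negative and 1228 to 3238 in control EpCAM-positive libraries. Of these, Thy1, which encodes the excluded CD90, was at 0 in every control EpCAM-negative library. The 5 neutrophil markers summed to 10.7 to 20.8 CPM in depleted and 1.77 to 4.92 CPM in control EpCAM-negative libraries, and to 8.82 to 16.1 CPM in depleted and 2.09 to 4.48 CPM in control EpCAM-positive libraries, against 30.2 to 31.8 CPM in the cultures. The 6 endothelial markers summed to 7.94 to 38.7 CPM in depleted and 1.18 to 4.39 CPM in control EpCAM-negative libraries. In EpCAM-positive libraries the endothelial sum was 30.4 to 58.8 CPM in depleted and 3.43 to 20.0 CPM in control tumours. The neutrophil and endothelial sums thus separated the treatments in each fraction, but rested on few genes in most groups. In depleted EpCAM-positive cells 5 of 6 endothelial markers, all but Cdh5, had a mean under 1 CPM, against 2 in control EpCAM-positive cells. In the cultures 4 of 5 neutrophil markers, all but S100a8, had a mean under 1 CPM. The same 4 did in every tumour group but depleted EpCAM-positive cells, where 3 did. The part of macrophages, fibroblasts, neutrophils and endothelial cells in the results was not tested.

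Since the genes are known E2F targets as a class, the promoter windows that RefSeq gives for them (mouse build GRCm38.p6, 250 bases before to 50 after a start) were searched on both strands for the E2F letters TTTCCCGC, TTTGGCGC, TTTCGCGC and TTTGCCGC, which can overlap one another. Windows were at hand for 27 of the 34 genes, and Gins1, Gins2, Rfc2, Pole, Mcm4, Ccne2 and Tipin had none in the table. The letters stood in a window of 11 of the 27 genes (40.7%), against 2.6% of all genes with a window and 4.4% of those tested here. GC content differed little, with a median of 59.8% in the members' windows and 60.0% in those of tested genes. The letters CCAAT occurred in 59.3% of members and 42.4% of tested genes, and TTTGAA, the CHR letters of late cell cycle promoters, in 11.1% of members and 14.6% of tested genes. The 250 bases before the start are shown for 5 members that carry the results below, with E2F letters in capitals. Mcm5, Mcm6 and Uhrf1 hold such letters, with overlapping matches in opposite orientation in Mcm5 and Mcm6. Uhrf1 has another window that holds none, and its window with letters is the one shown. Rrm2 moved with these genes and holds none, and Cdc45, which behaved differently, holds none either.
Mcm5, chr8:75109259-75109508, plus strand: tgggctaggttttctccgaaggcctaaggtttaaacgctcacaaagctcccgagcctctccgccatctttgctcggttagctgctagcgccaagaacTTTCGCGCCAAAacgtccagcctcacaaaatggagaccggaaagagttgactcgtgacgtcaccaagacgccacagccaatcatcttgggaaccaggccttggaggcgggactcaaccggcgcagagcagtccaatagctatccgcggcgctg
Mcm6, chr1:128359706-128359955, minus strand: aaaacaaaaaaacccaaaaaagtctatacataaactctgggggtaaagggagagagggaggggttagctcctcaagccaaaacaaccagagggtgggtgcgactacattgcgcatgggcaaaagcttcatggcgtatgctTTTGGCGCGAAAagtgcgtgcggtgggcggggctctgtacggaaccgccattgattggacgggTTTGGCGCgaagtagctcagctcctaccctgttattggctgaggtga
Uhrf1, chr17:56304063-56304312, plus strand: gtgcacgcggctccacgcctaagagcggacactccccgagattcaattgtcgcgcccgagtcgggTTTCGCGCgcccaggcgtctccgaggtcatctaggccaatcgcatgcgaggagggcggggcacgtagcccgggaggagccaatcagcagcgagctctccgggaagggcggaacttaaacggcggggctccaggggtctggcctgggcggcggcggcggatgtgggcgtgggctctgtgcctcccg
Rrm2, chr12:24708004-24708253, plus strand: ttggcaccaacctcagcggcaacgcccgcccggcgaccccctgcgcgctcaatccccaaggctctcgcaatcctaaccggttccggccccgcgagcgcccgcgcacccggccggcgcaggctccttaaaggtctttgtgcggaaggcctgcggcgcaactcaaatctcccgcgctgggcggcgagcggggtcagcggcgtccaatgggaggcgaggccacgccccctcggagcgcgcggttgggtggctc
Cdc45, chr16:18811973-18812222, minus strand: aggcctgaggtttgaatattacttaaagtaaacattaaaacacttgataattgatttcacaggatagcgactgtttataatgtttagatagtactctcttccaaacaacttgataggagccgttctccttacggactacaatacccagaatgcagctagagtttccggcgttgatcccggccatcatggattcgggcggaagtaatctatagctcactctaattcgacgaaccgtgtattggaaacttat

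The 34 genes together summed to 1128 to 1406 CPM in depleted EpCAM-negative libraries (median 1283) and to 1395 to 1665 CPM in depleted EpCAM-positive libraries (median 1478). They summed to 1056 to 1621 CPM in control EpCAM-negative libraries (median 1321) and to 767.3 to 1233 CPM in control EpCAM-positive libraries (median 1086), and the cultures stood far above at 3614 and 3718 CPM. Among the tumour groups the median of a gene was highest in the depleted EpCAM-positive cells for 17 members and in the control EpCAM-negative cells for 14. It was lowest in the control EpCAM-positive cells for 19 members and highest there for none. The plot of summed levels by library shows the spread. In these bulk samples, fewer cycling cells and less RNA per cell cannot be told apart.

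**Figure D1:**
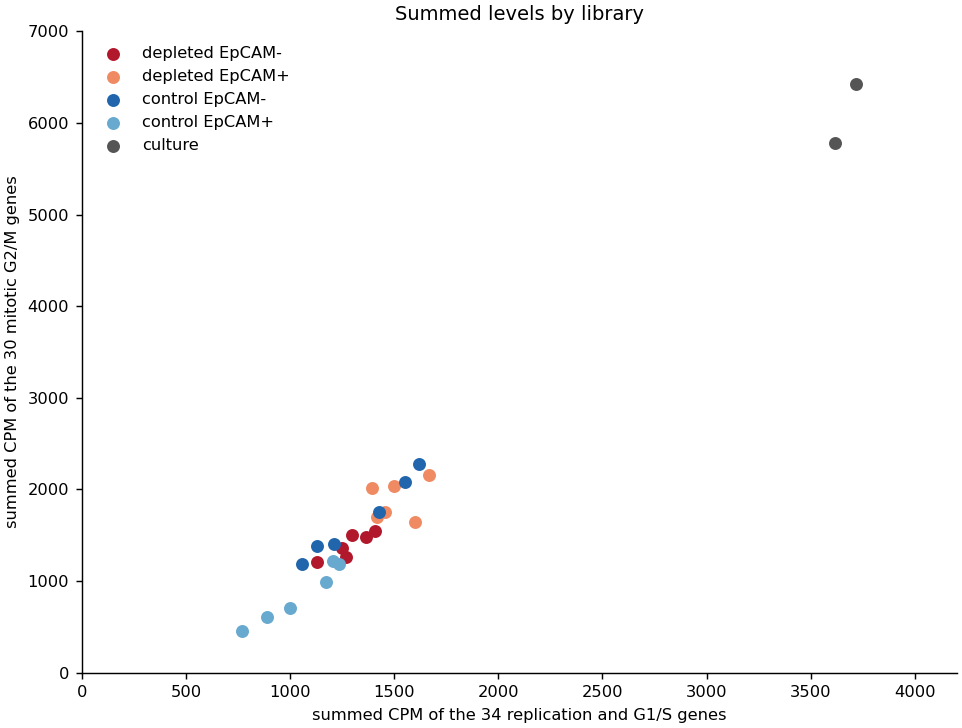
Summed CPM of the 34 replication and G1/S genes (horizontal) against that of 30 mitotic G2/M genes (vertical), each point a library, coloured by group. The cultures lie at the upper right at 3614 and 3718 CPM on the horizontal axis, and control EpCAM-positive libraries reach lowest, to 767.3 CPM.

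The first question was whether the mesenchymal and epithelial fractions of a tumour differed, and the answer depended on the treatment. In depleted tumours 1 of 34 members rose (2.94%) and 6 fell (17.6%) in EpCAM-negative relative to EpCAM-positive cells, where 14.2% of all tested features rose and 14.3% fell. With the replicate number as a block, since same-numbered libraries of depleted tumours deviated together, 2 rose (5.88%) and 14 fell (41.2%), against 17.2% and 18.2% of all features. In control tumours 11 rose (32.4%) and 0 fell, against 13.3% and 14.5% of all features. At an unadjusted p under 0.05, 17 rose and 0 fell there, and DESeq2 called 11 and 0. With the replicate block 16 rose in control tumours (47.1%) and 0 fell, against 16.6% and 17.2% of all features. The median log2 fold change of the 34 was -0.27 in depleted and 0.34 in control tumours, against 0.013 and -0.01 over all features. Calls of the main model, without the block, rest on edgeR's quasi-likelihood test. They used Benjamini-Hochberg adjustment over all 16637 features and a threshold of 0.05. The block fit used the same test and threshold on the 24 tumour libraries, without the cultures, over 14485 features.

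The 2 contrasts were set against each other directly, as an interaction. The EpCAM-negative over EpCAM-positive difference was more negative in depleted than in control tumours for 10 of 34 members (29.4%) and more positive for 0, against 8.69% and 9.33% of all features. At an unadjusted p under 0.05 it was more negative for 17 and more positive for 0, and DESeq2 called 10 and 0. The 10 were Mcm2, Mcm3, Mcm4, Mcm5, Mcm6, Tyms, Rrm1, Rrm2, Chaf1b and Uhrf1, with differences of -0.60 to -1.06 on the log2 scale. The other 24 did not pass in the main model. With the replicate block Cdc45, Rfc5 and Pola1 were more negative too (adjusted p = 0.025, 0.0377 and 0.00945). Of the 10, 9 passed under every alternative tried, and Mcm3 did not pass in 16 of 24 fits that left out 1 library, with an adjusted p of at most 0.0949. The plot of the EpCAM contrast by gene shows Mcm2 to Mcm6, Tyms, Rrm1, Rrm2, Chaf1b and Uhrf1 on opposite sides of 0 in the 2 treatments.

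**Figure D2:**
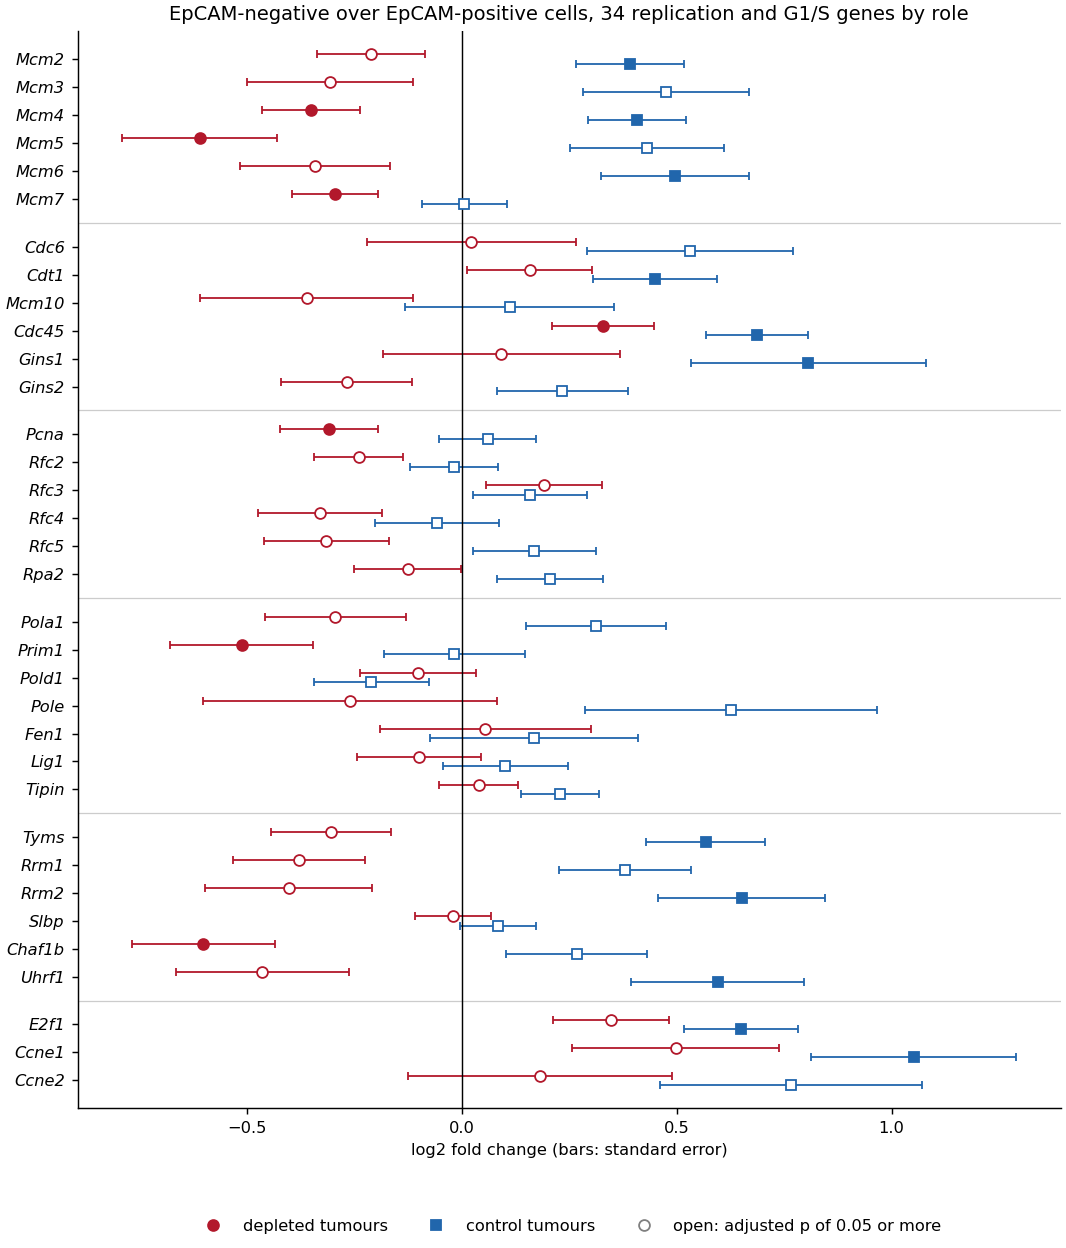
Log2 fold change of EpCAM-negative over EpCAM-positive cells for each of the 34 genes, in depleted tumours (circles) and control tumours (squares), with standard errors, grouped by role from MCM subunits at the top to G1/S regulators at the bottom. Filled symbols passed the threshold: 7 in depleted and 11 in control tumours.

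The numbers of calls within a treatment changed with the fit and with single libraries. In depleted tumours the block added Mcm2, Mcm6, Rfc2, Rfc5, Pola1, Rrm1, Rrm2 and Uhrf1 to the members that fell, with adjusted p of 0.00558 to 0.0398, and E2f1 to those that rose. EpCAM-negative libraries lay below every EpCAM-positive library for Mcm4, Mcm5 and Chaf1b (8.82% of members), against 8.45% of all features. In depleted tumours 13 members (38.2%) were lower in the EpCAM-negative library of all 6 numbers, against 14.8% of all features. The single call upward without the block, Cdc45, was lost in 7 of 12 fits without 1 library. In control tumours the count of 11 became 4 (11.8%) when only the 12 libraries compared were fitted, against 14.6% of all features in that fit, so that the members' share no longer exceeded the background. It became 6 without EpCAM-positive library 5 or without EpCAM-negative library 1, and 7 without EpCAM-positive library 4 or EpCAM-negative library 3. The count went up in other fits, to 15 without EpCAM-negative library 4 and to 16 (47.1%) with the replicate block, against 16.6% of all features. In control tumours the block added Mcm3, Mcm5, Pola1, Rrm1 and Ccne2, with adjusted p of 0.0139 to 0.0415. Ccne1, Cdc45, E2f1 and Tyms stayed called in every alternative in control tumours, and Mcm5, Chaf1b and Prim1 in depleted tumours. Control EpCAM-positive libraries 4 and 5 had the lowest sums of that group, at 767.3 and 887.1 CPM.

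The second question was how depleted tumours differed from control tumours within a fraction. Among EpCAM-positive cells 15 of 34 members rose in depleted tumours (44.1%) and 0 fell, against 17.6% and 22.4% of all features. At an unadjusted p under 0.05, 18 rose and 0 fell, and DESeq2 called 15 and 0. Among EpCAM-negative cells 3 rose (8.82%) and 7 fell (20.6%), against 21.9% and 23.2% of all features, shares at or below the background. The median log2 fold change of the 34 was 0.32 in the EpCAM-positive fraction and -0.15 in the EpCAM-negative fraction, against -0.024 and 0.032 over all features. Every library of depleted tumours exceeded every control library for 9 members in the EpCAM-positive fraction, namely Mcm2, Mcm4, Mcm6, Cdc45, Gins2, Rfc4, Lig1, Rrm1 and Uhrf1, and for Cdc45 and Lig1 in the EpCAM-negative fraction. Over all features, 9.21% were separated this way in the EpCAM-positive and 10.4% in the EpCAM-negative fraction, so the 9 members (26.5%) exceeded the background and the 2 (5.88%) did not. Of the calls in the EpCAM-positive fraction only that of Slbp was lost in any alternative. In the EpCAM-negative fraction the 7 lower calls became 3 without depleted library 3 or control library 1. They became 4 without depleted library 1 or 5 or without control library 2 or 3.

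**Figure D3:**
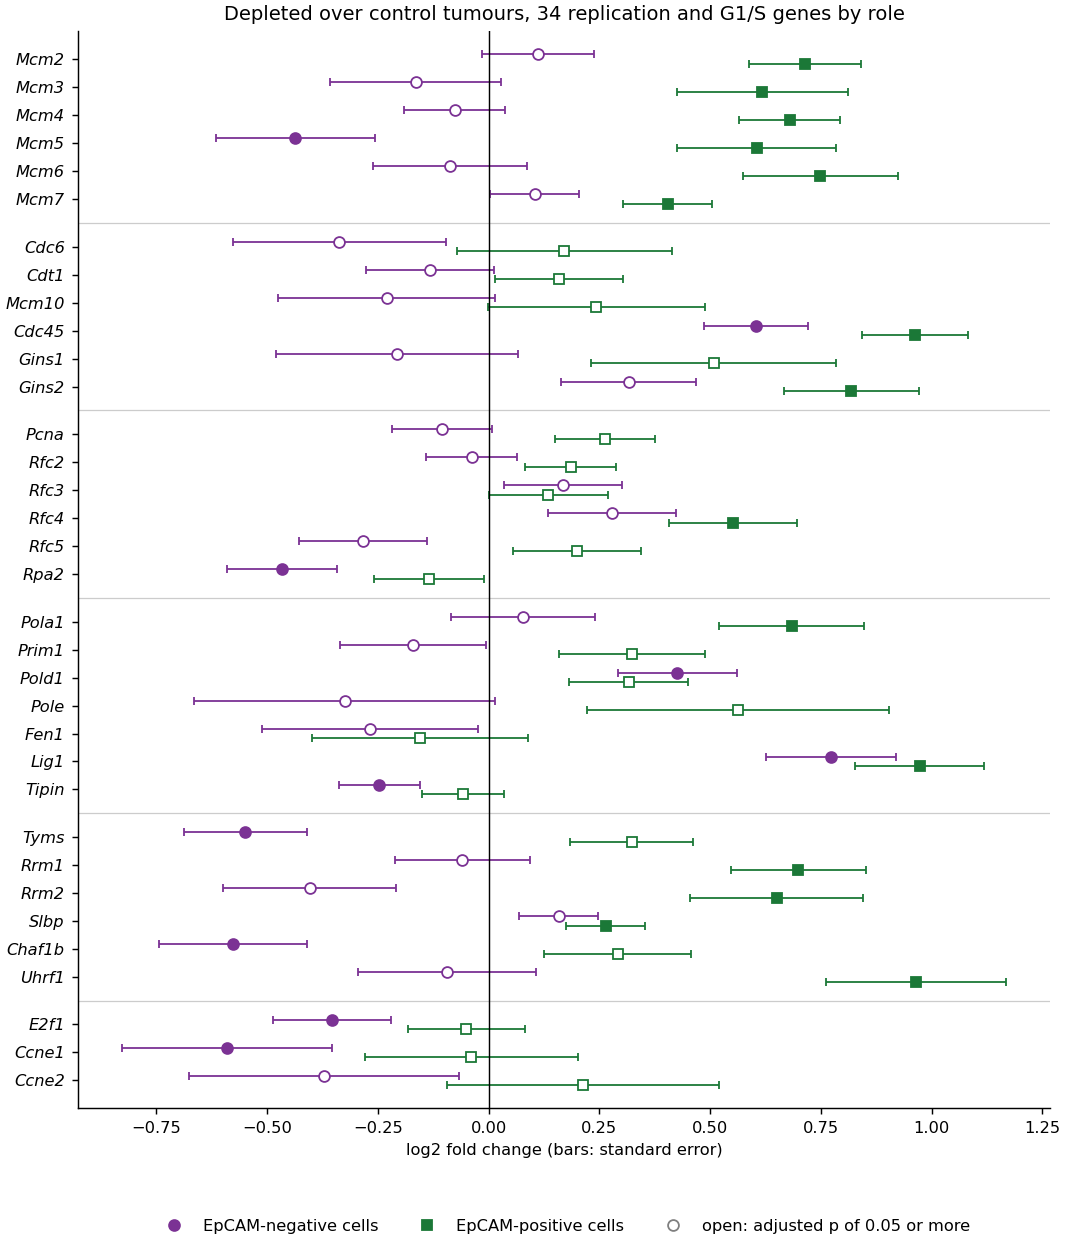
Log2 fold change of depleted over control tumours for each of the 34 genes, in EpCAM-negative cells (circles) and EpCAM-positive cells (squares), with standard errors. Filled symbols passed the threshold: 10 in EpCAM-negative cells, in both directions, and 15 in EpCAM-positive cells, all to the right of 0.

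The 6 MCM subunits, which form the ring of the replicative helicase, moved together between treatments in EpCAM-positive cells. All 6 rose in depleted over control EpCAM-positive cells, by 0.40 (Mcm7) to 0.75 (Mcm6) on the log2 scale. In EpCAM-negative cells 1 of 6, Mcm5, passed for that comparison, and the 6 ranged from -0.44 to 0.11, with 2 above 0. Mcm4 had 99.7, 116.5 and 128.8 CPM (lowest, median and highest) in depleted EpCAM-negative libraries, against 131.5, 140.6 and 179.1 CPM in depleted EpCAM-positive libraries. In control tumours it had 107.0, 115.8 and 151.7 CPM in EpCAM-negative libraries, against 64.4, 92.5 and 110.5 CPM in EpCAM-positive libraries. The fractions did not overlap in depleted tumours and overlapped in control tumours, and the order of their medians was opposite. Mcm4 was called in both, with log2 fold changes of -0.35 (SE 0.114, adjusted p = 0.0218) in depleted and 0.41 (SE 0.114, adjusted p = 0.00831) in control tumours, a difference of -0.76 (SE 0.161, adjusted p = 0.00143). Its call in depleted tumours was lost without EpCAM-positive library 5 or EpCAM-negative library 3, with an adjusted p of at most 0.0649, and that in control tumours when only the libraries compared were fitted.

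Mcm5 had the largest fall of the 34 in depleted tumours, with 41.8, 45.6 and 51.8 CPM in EpCAM-negative libraries against 60.6, 68.2 and 86.1 CPM in EpCAM-positive libraries. Control EpCAM-negative libraries had 44.7, 63.8 and 82.7 CPM and control EpCAM-positive libraries 22.7, 47.4 and 64.4 CPM. Thus depleted EpCAM-negative cells lay at the low edge of the control EpCAM-negative range, while depleted EpCAM-positive cells lay at the upper edge of the control EpCAM-positive range. The contrast of fractions was -0.61 (SE 0.180, adjusted p = 0.0113) in depleted and 0.43 (SE 0.179, adjusted p = 0.075) in control tumours, and the difference -1.04 (SE 0.254, adjusted p = 0.00464). With the replicate block the control contrast passed (0.455, adjusted p = 0.0139). Depleted over control, Mcm5 rose by 0.60 in EpCAM-positive cells (adjusted p = 0.00849) and fell by 0.44 in EpCAM-negative cells (adjusted p = 0.0497). The call in EpCAM-negative cells did not hold in 9 of 12 fits without 1 library, with an adjusted p of up to 0.147 without control library 1.

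Mcm7 differed in that its fractions were alike in control tumours, at 29.1, 34.05 and 40.4 CPM in EpCAM-negative libraries and 27.3, 34.4 and 40.6 CPM in EpCAM-positive libraries. In depleted tumours it had 34.2, 37.1 and 42.2 CPM in EpCAM-negative libraries against 40.5, 46.2 and 55.1 CPM in EpCAM-positive libraries, and fell by 0.29 (SE 0.100, adjusted p = 0.0281). That call was lost without EpCAM-positive library 1 or 5 or EpCAM-negative library 4, with an adjusted p of at most 0.0757. Mcm7 shares 321 exon bases with Ap4m1 and 64 with Cops6 on the opposite strand, and reads of such partners cannot be told apart in these unstranded libraries. Mcm2 and Mcm6 rose in control EpCAM-negative cells by 0.39 (adjusted p = 0.0209) and 0.50 (adjusted p = 0.0341), calls lost in 4 and 6 of 12 fits without 1 library. Mcm3 passed in neither treatment in the main model, and with the replicate block it passed in control tumours (0.477, adjusted p = 0.0325).

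Among the 6 loading and firing factors, Cdc45, the partner of MCM and GINS in the active helicase, took a course of its own. It had 52.9, 55.8 and 69.0 CPM in depleted EpCAM-negative libraries against 39.7, 45.2 and 55.4 CPM in depleted EpCAM-positive libraries. Control tumours had 27.9, 37.2 and 47.4 CPM in EpCAM-negative against 19.5, 22.5 and 29.6 CPM in EpCAM-positive libraries. Cdc45 was thus higher in the mesenchymal fraction under both treatments, by 0.33 (SE 0.118, adjusted p = 0.0387) in depleted and 0.69 (SE 0.119, adjusted p = 7.65e-05) in control tumours. It was also higher in depleted than in control tumours in both fractions, by 0.60 (SE 0.118, adjusted p = 0.000155) in EpCAM-negative and 0.96 (SE 0.120, adjusted p = 3.81e-07) in EpCAM-positive cells, with no overlap of libraries in either. The interaction, -0.36, did not pass in the main model (adjusted p = 0.149). With the replicate block it passed (-0.35, adjusted p = 0.025), in the direction of the MCM genes. Cdc45 shares 209 exon bases with Ufd1 on the opposite strand. Ufd1, with a mean of 138.1 CPM over all libraries, differed by at most 0.08 on the log2 scale in these 4 comparisons.

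Cdc6 and Cdt1, which bring MCM to origins, and Mcm10, which acts as origins fire, changed less among tumours. Cdt1 rose by 0.45 in control EpCAM-negative cells (SE 0.144, adjusted p = 0.0204). The call was lost without EpCAM-negative library 1 or EpCAM-positive library 5 or 6 and when only the libraries compared were fitted. Neither Cdc6 nor Mcm10 passed in any comparison among tumour groups. The GINS subunits differed from each other. Gins1 was low throughout, at 2.58, 4.11 and 4.28 CPM in control EpCAM-negative against 0.849, 2.25 and 3.17 CPM in control EpCAM-positive libraries, and rose by 0.81 (SE 0.274, adjusted p = 0.0292), a call lost in 6 of 12 fits without 1 library. Its levels in depleted tumours were 1.71, 2.98 and 4.93 CPM in EpCAM-negative and 2.29, 2.95 and 3.66 CPM in EpCAM-positive libraries, which overlapped. Gins2 instead rose with depletion in EpCAM-positive cells, at 18.1, 22.3 and 27.0 CPM in depleted against 10.3, 12.7 and 16.8 CPM in control libraries (log2 fold change 0.82, SE 0.153, adjusted p = 0.000107), without overlap. In EpCAM-negative cells Gins2 had 15.5, 19.7 and 21.1 CPM in depleted and 10.1, 15.3 and 20.6 CPM in control libraries (adjusted p = 0.0932). Gins2 shares 2758 exon bases with Gse1 on the opposite strand, which differed by 0.09 between depleted and control EpCAM-positive cells.

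Few of the clamp, clamp loader and RPA genes passed. Of the 6, 1 fell in depleted EpCAM-negative relative to EpCAM-positive cells, and the others did not pass in either treatment or for the difference of contrasts. With the replicate block Rfc2 (adjusted p = 0.0302) and Rfc5 (adjusted p = 0.0338) fell too in depleted tumours, and Rfc5 passed for the difference of contrasts (-0.49, adjusted p = 0.0377). Pcna, the sliding clamp, had 17.2, 21.1 and 22.9 CPM in depleted EpCAM-negative libraries against 21.8, 25.7 and 29.9 CPM in depleted EpCAM-positive libraries. Control tumours had 17.4, 22.6 and 25.7 CPM in EpCAM-negative against 15.8, 21.4 and 26.2 CPM in EpCAM-positive libraries. Pcna thus fell by 0.31 in depleted tumours (SE 0.113, adjusted p = 0.0415), lower in the EpCAM-negative library of 6 of 6 numbers, a call that did not hold in 7 of 12 fits without 1 library. The pseudogene Pcna-ps2, which could share its reads, averaged 0.567 CPM.

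Of the clamp loader subunits Rfc2, Rfc3, Rfc4 and Rfc5, Rfc4 was the one called among tumours without the block, in depleted over control EpCAM-positive cells, at 27.7, 30.2 and 36.6 CPM in depleted against 15.0, 20.5 and 26.8 CPM in control EpCAM-positive libraries (log2 fold change 0.55, SE 0.145, adjusted p = 0.00336), without overlap. It shares 194 exon bases with Eif4a2 on the opposite strand, which differed by 0.12 in that comparison. Rfc5 and Rfc2 share 499 and 952 exon bases with Wsb2 and Lat2. Rpa2, a subunit of RPA, had 11.8, 12.7 and 14.1 CPM in depleted and 12.9, 19.1 and 21.1 CPM in control EpCAM-negative libraries, and fell by 0.47 (SE 0.124, adjusted p = 0.00317). In EpCAM-positive cells it had 11.2, 13.5 and 18.5 CPM in depleted and 14.6, 15.5 and 16.2 CPM in control libraries, which overlapped.

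Lig1, which seals Okazaki fragments, had the largest change between treatments of the 34 genes. It had 63.0, 82.8 and 92.5 CPM in depleted EpCAM-negative libraries against 30.99, 47.3 and 63.0 CPM in control EpCAM-negative libraries. In the EpCAM-positive fraction it had 73.4, 85.8 and 107.1 CPM in depleted against 35.4, 44.5 and 57.9 CPM in control libraries. The lowest depleted and the highest control EpCAM-negative library stood side by side at 63.0 CPM without crossing, and the EpCAM-positive groups were well apart. Lig1 rose by 0.77 (SE 0.146, adjusted p = 9.74e-05) in EpCAM-negative and 0.97 (SE 0.146, adjusted p = 6.39e-06) in EpCAM-positive cells, and the fractions did not differ beyond their spread in depleted (adjusted p = 0.68) or control tumours (adjusted p = 0.665). It shares 247 exon bases with Zswim9 on the opposite strand, which differed by 0.56 in the EpCAM-negative fraction and by -0.18 in the EpCAM-positive fraction, neither past the threshold.

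Prim1, the catalytic primase subunit, had 13.4, 14.0 and 21.7 CPM in depleted EpCAM-negative against 19.9, 21.8 and 24.1 CPM in depleted EpCAM-positive libraries, and fell by 0.51 (SE 0.166, adjusted p = 0.021). The overlap came from EpCAM-negative library 5. Its partner Pola1, the catalytic subunit of polymerase alpha, rose by 0.68 in depleted over control EpCAM-positive cells (SE 0.163, adjusted p = 0.00146). Pold1, the catalytic subunit of polymerase delta, had 20.1, 26.2 and 28.2 CPM in depleted and 13.4, 19.0 and 23.8 CPM in control EpCAM-negative libraries, and rose by 0.43 (SE 0.135, adjusted p = 0.0116). In EpCAM-positive cells it had 23.1, 26.6 and 33.6 CPM in depleted and 17.7, 22.1 and 26.8 CPM in control libraries (adjusted p = 0.0639). Tipin, a fork protection factor, fell by 0.25 in depleted over control EpCAM-negative cells (SE 0.0915, adjusted p = 0.0297), a call lost in 6 of 12 fits without 1 library. Pole, of polymerase epsilon, and Fen1, the flap endonuclease, passed in no comparison among tumours. Fen1 was read at 0.911 to 2.32 CPM in tumours. Fen1 shares 130 exon bases with the more strongly read Tmem258 and 1909 with Gm10143, an antisense gene at a mean of 0.084 CPM, so its value is uncertain.

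Nucleotide supply and chromatin genes carried 5 of the 10 differences between the contrasts. Rrm2, the regulated subunit of ribonucleotide reductase, had 57.3, 74.1 and 84.4 CPM in depleted EpCAM-negative against 80.6, 96.4 and 109.5 CPM in depleted EpCAM-positive libraries. In control tumours it had 66.5, 91.3 and 129.9 CPM in EpCAM-negative against 30.0, 64.1 and 93.2 CPM in EpCAM-positive libraries. The contrast was -0.40 (SE 0.195, adjusted p = 0.132) in depleted and 0.65 (SE 0.195, adjusted p = 0.0133) in control tumours, with a difference of -1.05 (SE 0.276, adjusted p = 0.00811). With the replicate block the depleted contrast passed (-0.42, adjusted p = 0.0245), and Rrm2 was lower in the EpCAM-negative library of 6 of 6 numbers. When only the libraries compared were fitted, the control contrast had an adjusted p of 0.0772. Rrm1, the catalytic subunit, had contrasts of -0.38 (adjusted p = 0.0667) in depleted and 0.38 (adjusted p = 0.066) in control tumours that did not pass alone. With the replicate block both contrasts passed (adjusted p = 0.0138 in depleted and 0.0298 in control tumours). Rrm1 rose by 0.70 in depleted over control EpCAM-positive cells (SE 0.153, adjusted p = 0.00064).

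Tyms, the thymidylate synthase, was tight in depleted EpCAM-negative cells at 22.2, 24.5 and 25.8 CPM, against 25.1, 27.5 and 36.8 CPM in depleted EpCAM-positive cells. Control EpCAM-negative cells had 24.6, 36.1 and 41.7 CPM and control EpCAM-positive cells 16.7, 23.5 and 31.4 CPM. Tyms rose by 0.57 with the mesenchymal fraction in control tumours (SE 0.138, adjusted p = 0.00276) and fell by 0.55 in depleted over control EpCAM-negative cells (SE 0.139, adjusted p = 0.00208). Slbp, which binds histone mRNA, was nearly level. It had 47.7, 50.6 and 61.0 CPM in depleted against 36.5, 43.2 and 49.9 CPM in control EpCAM-positive libraries, and rose by 0.26 (SE 0.0887, adjusted p = 0.0195), a call lost without depleted library 1 or control library 4 or 5, with an adjusted p of at most 0.0604. In EpCAM-negative cells Slbp had 44.8, 52.4 and 57.4 CPM in depleted and 37.7, 46.4 and 52.9 CPM in control libraries (adjusted p = 0.152).

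Chaf1b, a subunit of the CAF-1 histone chaperone, had 17.8, 21.6 and 25.8 CPM in depleted EpCAM-negative libraries against 26.9, 33.6 and 41.8 CPM in depleted EpCAM-positive libraries, without overlap. Control EpCAM-negative libraries had 23.9, 33.95 and 39.9 CPM and control EpCAM-positive libraries 14.4, 28.5 and 35.9 CPM. The depleted EpCAM-negative cells thus stood below the other 3 tumour groups in their median. Chaf1b fell by 0.60 in depleted EpCAM-negative relative to EpCAM-positive cells (SE 0.166, adjusted p = 0.00712) and by 0.58 in depleted over control EpCAM-negative cells (SE 0.166, adjusted p = 0.00583). Uhrf1, which guides maintenance DNA methylation at forks, had 26.6, 34.8 and 37.96 CPM in depleted EpCAM-negative against 35.8, 46.3 and 56.6 CPM in depleted EpCAM-positive libraries. Control tumours had 22.7, 34.5 and 54.0 CPM in EpCAM-negative against 14.8, 23.2 and 35.0 CPM in EpCAM-positive libraries. Its difference of contrasts, -1.06 (SE 0.285, adjusted p = 0.00994), was the largest of the 34, and it rose by 0.96 in depleted over control EpCAM-positive cells (SE 0.203, adjusted p = 0.000405).

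**Figure D4:**
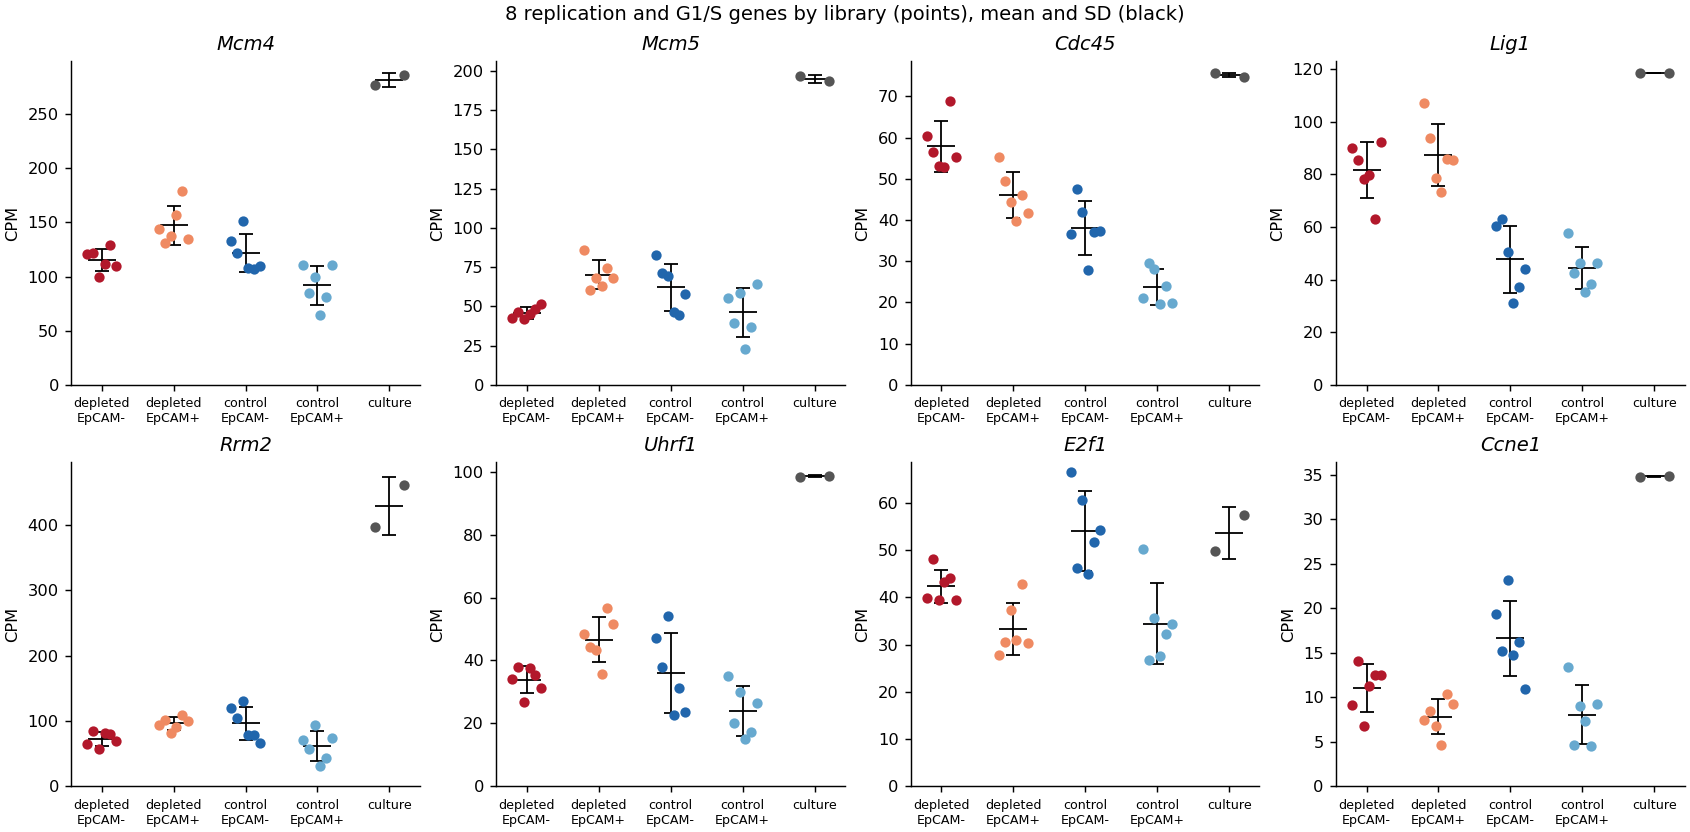
CPM of 8 of the genes in each library (points), with the mean and SD of each group in black, from depleted EpCAM-negative at the left to the cultures at the right. Mcm4 and Mcm5 do not overlap between the fractions of depleted tumours, Cdc45 and Lig1 do not overlap between depleted and control tumours within a fraction, and the cultures overlap tumour libraries for E2f1 alone of the 8.

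Of the 3 G1/S regulators, E2f1 and Ccne1 rose in EpCAM-negative relative to EpCAM-positive cells of control tumours. All 3 had positive log2 fold changes in both treatments. Their differences of contrasts, -0.30 to -0.58, were negative like those of the MCM genes and did not pass. E2f1, the founding E2F activator, had 39.4, 41.6 and 48.1 CPM in depleted EpCAM-negative against 27.8, 30.8 and 42.8 CPM in depleted EpCAM-positive libraries. In control tumours it had 45.0, 53.1 and 66.7 CPM in EpCAM-negative against 26.7, 33.4 and 50.4 CPM in EpCAM-positive libraries. The contrast was 0.35 in depleted tumours (SE 0.134, adjusted p = 0.0536; 0.00655 with the replicate block) and 0.65 in control tumours (SE 0.133, adjusted p = 0.000506). E2f1 was higher in the EpCAM-negative library of 6 of 6 numbers in depleted tumours. In depleted over control EpCAM-negative cells it fell by 0.35 (SE 0.133, adjusted p = 0.0321), a call lost in 5 of 12 fits without 1 library.

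Ccne1, which encodes cyclin E1, had 6.71, 11.9 and 14.0 CPM in depleted EpCAM-negative and 4.66, 7.95 and 10.3 CPM in depleted EpCAM-positive libraries, which overlapped. Control tumours had 10.9, 15.7 and 23.2 CPM in EpCAM-negative against 4.55, 8.16 and 13.3 CPM in EpCAM-positive libraries. Its rise of 1.05 in control tumours (SE 0.238, adjusted p = 0.00144) was the largest contrast of fractions among the 34. In depleted over control EpCAM-negative cells Ccne1 fell by 0.59 (SE 0.237, adjusted p = 0.0446), lost in 8 of 12 fits without 1 library, with an adjusted p of up to 0.119. Ccne2, cyclin E2, had 2.79, 6.49 and 9.41 CPM in depleted EpCAM-negative and 4.54, 5.59 and 6.27 CPM in depleted EpCAM-positive libraries. It had 6.03, 8.36 and 10.1 CPM in control EpCAM-negative and 1.48, 5.00 and 7.82 CPM in control EpCAM-positive libraries, and passed in none of the comparisons of the main model. With the replicate block Ccne2 rose in control EpCAM-negative relative to EpCAM-positive cells (0.953, adjusted p = 0.0194). Ccne2 shares 609 exon bases with Ints8 on the opposite strand.

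Against the cultured line, nearly the whole set was lower in tumour cells. Of 34 members, 29 (85.3%) fell in depleted EpCAM-negative cells and 31 (91.2%) in depleted EpCAM-positive cells, against 20.6% and 18.6% of all features. In control tumours 32 (94.1%) fell in EpCAM-negative cells and 33 (97.1%) in EpCAM-positive cells, against 24.2% and 22.4% of all features. None rose, by edgeR, by DESeq2 or at an unadjusted p under 0.05, while 21.8%, 20.9%, 26.5% and 27.8% of all features rose in the same order of groups. The median log2 fold change was -1.55, -1.21, -1.41 and -1.64, against 0.092, 0.111, 0.076 and 0.171 over all features. The 4 comparisons share the 2 cultures and are not independent. For 30 members (88.2%) both cultures exceeded all 24 tumour libraries, against 13.8% of all features. In all 4 groups 28 members (82.4%) fell, against 11.1% of all features.

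Rrm2 was among the 4 largest falls in every tumour group, with 397.5 and 461.2 CPM in the cultures, and fell by 2.57 in depleted EpCAM-negative and 2.81 in control EpCAM-positive cells. Mcm10 had 5.72, 6.08 and 9.89 CPM in depleted EpCAM-negative and 5.25, 8.15 and 14.5 CPM in depleted EpCAM-positive libraries, against 39.1 and 41.2 CPM in the cultures. It had 3.96, 9.55 and 10.5 CPM in control EpCAM-negative and 4.55, 8.19 and 8.74 CPM in control EpCAM-positive libraries, and fell by 2.18 to 2.54 across the 4 groups. Mcm3 ranged from 20.5 to 67.1 CPM and Mcm2 from 53.8 to 127.9 CPM over the tumour libraries, against 178.3 and 193.2 CPM and against 365.9 and 369.2 CPM in the cultures. Cdc6 ranged from 2.56 to 13.4 CPM in tumours, against 30.2 and 33.4 CPM in the cultures. These genes cover loading, firing and nucleotide supply alike.

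The exceptions were regulators and a few late factors. E2f1 had 49.8 and 57.5 CPM in the cultures and differed by 0.01 in control EpCAM-negative cells (SE 0.187, adjusted p = 0.975), and its falls in both EpCAM-positive groups were lost without culture 2. Ccne2 passed in none of the 4 groups, whereas Ccne1, at 34.8 and 34.9 CPM in the cultures, fell in all 4. Gins2 and Cdc45 did not pass in depleted EpCAM-negative cells (adjusted p = 0.0562 and 0.0637). Gins2 and Lig1 did not pass in depleted EpCAM-positive cells (adjusted p = 0.416 and 0.0824), and the fall of Lig1 in depleted EpCAM-negative cells was lost without either culture. Rfc3 passed in 3 groups, each lost without culture 1, with an adjusted p of 0.113 to 0.307. The control EpCAM-negative fall of Gins2 was lost without culture 1, with an adjusted p of 0.0638.

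**Figure D5:**
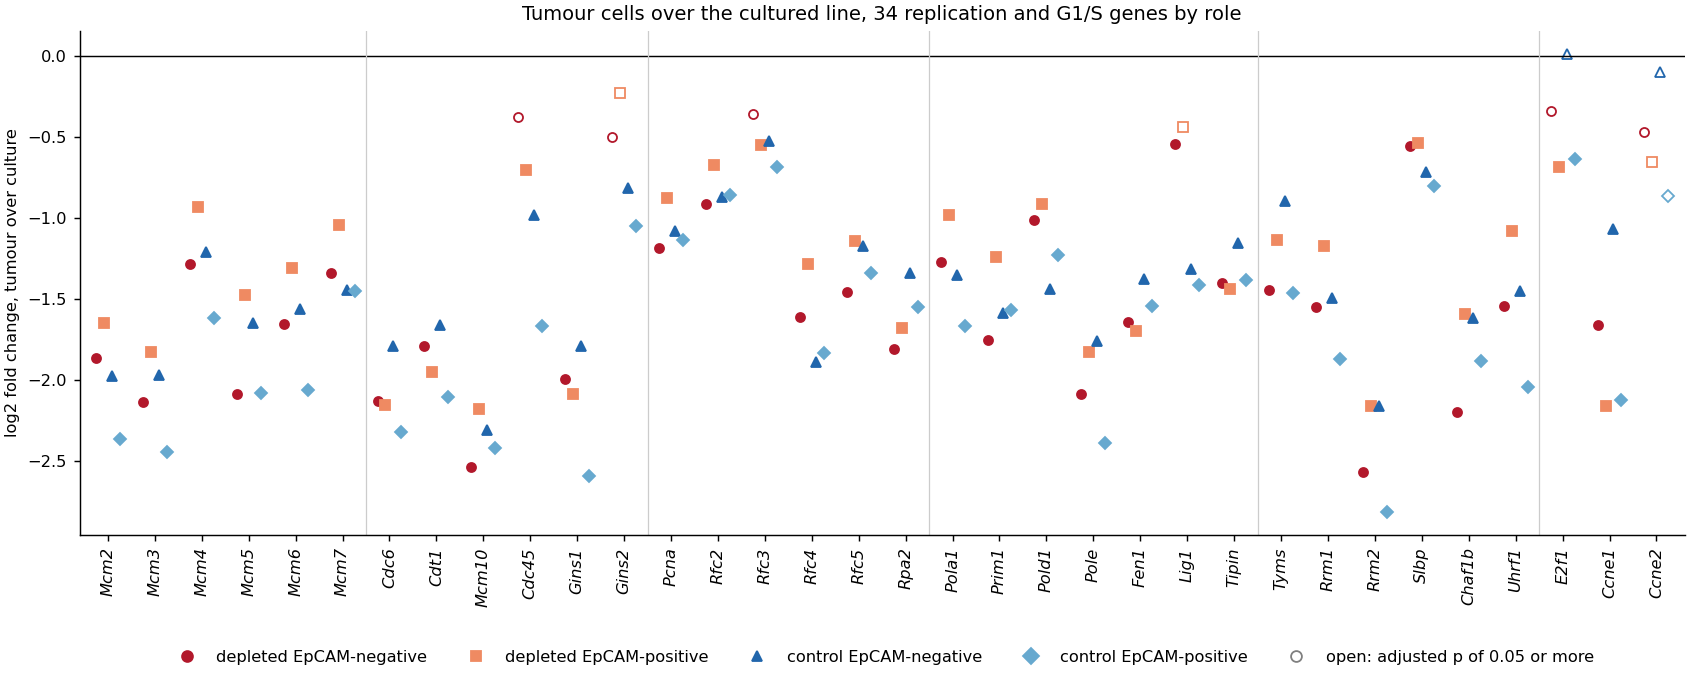
Log2 fold change over the 2 cultures of each of the 34 genes (horizontal, by role) in the 4 tumour groups. Filled symbols passed the threshold; Rrm2 and Mcm10 are among the 4 lowest in each group, and E2f1 in control EpCAM-negative cells lies at 0.01.

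Other genes of the same processes were counted from 8 lists. The median log2 fold change of mitotic G2/M genes had the direction of the members' median in each tumour comparison, and was larger. Of 30, 0 rose and 11 fell in depleted EpCAM-negative relative to EpCAM-positive cells (median -0.45), against 14.2% and 14.3% of all features. In control tumours 29 rose and 0 fell (median 0.89), against 13.3% and 14.5% of all features. For the interaction 23 were more negative in depleted tumours (median -1.42), against 8.69% of all features. In depleted over control EpCAM-positive cells 25 rose and 0 fell, against 17.6% and 22.4% of all features. In EpCAM-negative cells 0 rose and 4 fell, against 21.9% and 23.2% of all features, shares below the background. Kif20a, a kinesin of cytokinesis, changed by -0.69 (adjusted p = 0.0034) in depleted and by 1.40 (adjusted p = 9.92e-07) in control tumours. Mki67, the proliferation marker, had an interaction of -1.43 (adjusted p = 0.0036). The G2/M sum divided by the sum of the 34 members was 0.991 to 1.16 in depleted EpCAM-negative, 1.03 to 1.44 in depleted EpCAM-positive, 1.12 to 1.4 in control EpCAM-negative and 0.594 to 1.01 in control EpCAM-positive libraries, so the control fractions did not overlap in this ratio. It was 1.6 and 1.73 in the cultures.

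For the interaction 8.69% of all features were more negative and 9.33% more positive in depleted tumours. The counts of the licensing, polymerase and checkpoint lists were near or below these shares. Of 20 other licensing and firing genes, 1 passed for the interaction, Dbf4, the activator of the Cdc7 kinase (-0.86, adjusted p = 0.0128). Dbf4 rose by 1.18 in depleted over control EpCAM-positive cells (adjusted p = 4.07e-06). Of 22 other polymerase and fork genes, Chtf18 and Timeless, of an alternative clamp loader and the partner of Tipin, were more negative in depleted tumours (-1.04, adjusted p = 0.0284, and -0.90, adjusted p = 0.0275). Pold4, the small subunit of polymerase delta, went the other way: it rose with the mesenchymal fraction in both treatments, by 1.44 (adjusted p = 4.46e-10) in depleted and 0.74 (adjusted p = 1.33e-05) in control tumours, with an interaction of 0.70 (adjusted p = 0.00272). None of 16 other nucleotide genes passed for the interaction by edgeR, with 5 at an unadjusted p under 0.05. Of 10 chromatin genes 4 did, among them Hells, a remodeller that acts with Uhrf1 (-0.84, adjusted p = 0.00773), and Cenpa, the centromeric histone (-1.56, adjusted p = 0.000143). Of 15 checkpoint and repair genes 1 was more negative and 1 more positive in depleted tumours. The latter was Rad9a, a subunit of the checkpoint clamp (0.45, adjusted p = 0.03).

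Upstream regulators were mixed. For the interaction, 4 of 18 G1/S cyclins, kinases and inhibitors were more positive and 4 more negative. Of 16 E2F and pocket protein genes 0 were more positive and 2 more negative, against 9.33% and 8.69% of all features. In depleted over control EpCAM-positive cells 6 and 7 of these lists rose and 4 and 3 fell, against 17.6% and 22.4%. In EpCAM-negative cells 7 and 6 rose and 4 and 2 fell, against 21.9% and 23.2%. Ccnd1, cyclin D1, had the same shape as the MCM genes, with contrasts of -0.36 (adjusted p = 0.000793) in depleted and 0.46 (adjusted p = 5.69e-05) in control tumours, and rose by 1.00 in depleted over control EpCAM-positive cells (adjusted p = 1.71e-10). E2f8, a repressor among the E2Fs and itself an E2F target, rose by 2.31 in that comparison (adjusted p = 8.5e-10), and by 1.44 with the mesenchymal fraction of control tumours (adjusted p = 2.61e-06). Rb1, which encodes the retinoblastoma protein, fell in depleted over control tumours by 1.71 in EpCAM-negative (adjusted p = 2.1e-09) and 1.69 in EpCAM-positive cells (adjusted p = 4.35e-09). Its mean was 43.1 CPM in depleted against 141.4 CPM in control EpCAM-negative cells, and 38.3 CPM in depleted against 123.2 CPM in control EpCAM-positive cells. Cdkn1a, which encodes the inhibitor p21, fell by 0.66 in EpCAM-negative relative to EpCAM-positive cells of control tumours (adjusted p = 0.000383) and had an interaction of 0.56 (adjusted p = 0.033). Myc rose in depleted over control tumours by 0.87 in EpCAM-negative (adjusted p = 6.27e-06) and 0.46 in EpCAM-positive cells (adjusted p = 0.00744). Cdkn2a fell by 0.84 in depleted EpCAM-negative relative to EpCAM-positive cells (adjusted p = 0.00213), at means of 2.57 and 4.60 CPM.

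Members with and without E2F letters in a window were set side by side. The median difference of contrasts was -0.51 for the 11 with a match and -0.48 for the 16 without. In depleted over control EpCAM-positive cells the median log2 fold change was 0.60 with and 0.28 without a match, with ranges of 0.14 to 0.97 and -0.15 to 0.96. These are descriptions of a few genes, and the ranges overlapped throughout.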

How the data were processed

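The authors deposited raw read counts per gene for 26 libraries, with STAR, DESeq2 1.22.2 and the mouse build mm9 named in the submitters' processing notes; the sources used here give neither the counting program nor the annotation. The libraries came from SMARTer v4 and Nextera XT kits with single reads of 50 bases, per the labels' protocols, which mark neither strand nor molecules, and PCR cycles per library are not stated. Features were matched by identifier to symbols (47224 of 47729 Ensembl genes, GENCODE M21). Each library's group was taken from its title.

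Counts were tested as deposited with edgeR 4.0.16 under R 4.3.3: TMM normalization, its filter on counts by group, 1 coefficient per group over 26 libraries, a quasi-likelihood test and Benjamini-Hochberg adjustment over 16637 features, at a threshold of 0.05. CPM were computed here from the counts and TMM library sizes. The common biological coefficient of variation was 29.3%. The script was tested on simulated data. Nothing says that replicates were prepared independently, so p-values measure the spread between these libraries. No block was used in the main model. Same-numbered fractions of depleted tumours deviated together in 6 of 6 pairs (correlation 0.145 to 0.364 over 8737 genes with at least 10 CPM). In control tumours 5 of 6 pairs were above 0.1 (0.062 to 0.417). All 6 numbers correlated best with their own number in both treatments. As a control pair fell below 0.1, numbers were taken to pair the libraries in depleted tumours only. The control libraries may be paired too, so block values are given for both treatments. The pairing comes from the data and not from the labels. Overlaps and promoter windows come from GENCODE M21 and RefSeq, on GRCm38, with no coordinates of the mm9 counts. Alternatives included the Wald test of DESeq2 1.42.0, its size factors, no filter, fewer libraries and leaving out each library.

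Per-library values are given for called members among the 4 largest changes in either direction of a comparison, for members called in opposite directions, and for E2f1, Ccne1, Ccne2, Slbp, Uhrf1 and Pcna. Other lists contribute up to 4 genes of smallest p per comparison, with Ccnd1, Cdkn1a, Cdkn2a, Myc and Mki67. The members and lists were chosen with earlier results of these data known. A second deposited table on a log2-like scale, made by the authors, was not used here. Some genes of the other lists are not reported here.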

Additional observations from a re-analysis of the deposited data

Results flagged for a closer look

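In 4 of 136 groups of 6 libraries examined for the 34 genes, 1 library lay far from the others, where chance would give about 1 in 20. Cdc6 had 9.137 CPM in control EpCAM-positive library 3, against 5.177 to 6.544 CPM in the other 5. Rfc2 had 32.19 CPM in control EpCAM-positive library 5, against 44.17 to 49.28 CPM. Prim1 had 21.65 CPM in depleted EpCAM-negative library 5, against 13.41 to 15.52 CPM, and its fall in that fraction passed in every alternative. Tipin had 57.76 CPM in depleted EpCAM-negative library 4, against 44.33 to 49.0 CPM.

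The difference between EpCAM-negative and EpCAM-positive cells itself differed between depleted and control tumours for 10 genes, by edgeR's test of that difference. On the log2 scale, depleted minus control, it was -0.604 for Mcm2, -0.784 for Mcm3, -0.757 for Mcm4, -1.041 for Mcm5 and -0.836 for Mcm6. It was -0.872 for Tyms, -0.758 for Rrm1, -1.054 for Rrm2, -0.868 for Chaf1b and -1.058 for Uhrf1.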

How the results depend on the processing

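No value changed sign past the threshold. For EpCAM-negative over EpCAM-positive cells in depleted tumours, members higher numbered 0 with no filter on low counts and 0 in a fit of the 24 tumour libraries. They numbered 2 in a fit of the libraries compared and 2 with the replicate block, and members lower numbered 14 in each of these. In control tumours members higher numbered 4 in a fit of the libraries compared. With the replicate block, whose numbers did not pair the control libraries by the rule used although each of the 6 correlated best with its own number, members higher in control tumours numbered 16 (47.1%, against 16.6% of all features), and 13 (38.2%, against 11.7%) were more negative for the difference of contrasts. Leaving out 1 library at a time gave 0 to 1 higher and 4 to 7 lower in depleted tumours, 6 to 15 higher in control tumours and 9 to 11 lower for the difference. It gave 14 to 17 higher for depleted over control EpCAM-positive cells, and 3 to 4 higher and 3 to 7 lower for EpCAM-negative cells. Over the cultures, 30 to 32 and 28 to 32 were lower in depleted EpCAM-positive and EpCAM-negative cells, and 32 to 34 and 30 to 32 in control EpCAM-positive and EpCAM-negative cells. Of 3536 values of single genes without 1 library, 99 lost the call and 44 gained it, and of 1326 under the other alternatives 18 lost and 31 gained it. The causes were not tested. Depth, day and treatment cannot be told apart, and with 2 cultures the spread of that group rests on a single pair. Gins1 and Fen1 were read at the lowest counts of the 34.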
